A study of Mus musculus with 6 samples.

Results

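The insulin-like growth factor (IGF) genes of the liver and their binding proteins were followed in the Fra-1hep mouse, whose hepatocytes carry extra Fra-1, the product of Fosl1 and a subunit of the AP-1 transcription factor. The members were every array probe whose accession maps to Igfbp1 to Igfbp7, Igf1, Igf2 or Igfals, each probe kept apart. This gave 14 probes of 10 genes, out of 55681 probes of which 26056 carried 1 current symbol. Igf1 had 4 probes, Igfbp2 had 2 and each other gene had 1.

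IGF1 and IGF2 are small secreted hormones that act through the IGF1 receptor. In blood nearly all of each is held by a binding protein, which lengthens its life and limits its access to the receptor. The adult liver makes most circulating IGF1 under growth hormone, through STAT5B, and also makes the acid-labile subunit (Igfals), which joins IGF and IGFBP3 or IGFBP5 in a large long-lived complex. Hepatic IGFBP1 is the short-term regulator of the family: insulin represses it, and fasting, stress signals and glucocorticoids induce it.

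The Fra-1hep animals and the wild-type animals were both C57BL/6J, 26 to 28 weeks old, kept under standard conditions with no treatment, and the controls were fed chow. Each of 5 arrays set liver RNA of a single Fra-1hep mouse, in the dye Cy5, against a pool of 5 wild-type livers in Cy3. The sixth array had the dyes exchanged, with wild-type pool RNA in Cy5 and pooled Fra-1hep RNA in Cy3. Here its ratio is turned, so that every ratio is Fra-1hep over wild type. The series text speaks of 6 single mice, and the sample labels, which were followed, give 5 and the pool. The sources used here name neither the promoter that drives the transgene nor the makeup of the Fra-1hep pool. All controls are 1 pool, so the spread between wild-type animals enters no test.

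The Fra-1hep channel was well above background at 48.5 to 58.9% of the probes of an array and the wild-type channel at 45.0 to 50.7%, and 0 spots were saturated. The number of arrays limits the precision. The arrays of mice 2 and 3 differed from each other by 0.989 times what replicate spots predict, and the other pairs of mice by 1.72 to 2.14 times. They were therefore averaged, which leaves n = 4 counted mouse samples. The 1 Fosl1 probe was well above background on 0 of 6 arrays, with a log2 ratio of -0.07 (SE 0.06) and an adjusted p of 0.655 in limma without the background filter. It does not check the labels, since the sources used here do not say where in the transcript it lies. The liver label was checked against 10 hepatocyte markers, and all 10 passed the background filter.

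A ratio is given as log2, so that 1 stands for a doubling and -1 for a halving. The mouse samples and the turned array of pools entered 1 limma model with a term for dye, fitted to all 30110 probes that were well above background often enough. An adjusted p (Benjamini-Hochberg over those probes) under 0.05 counts as a change. In that model the array of pools weighs as much as all the mice together.

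The 4 genes that changed were Igfbp1, Igfbp2, Igf1 and Igfals, and 300 bases around an annotated start of each (250 before and 50 after) are shown with the motifs found in them in capitals. They are RefSeq sequences on GRCm38.p6, plus strand, 5′ to 3′.
Igfbp1, chr11:7197537-7197836: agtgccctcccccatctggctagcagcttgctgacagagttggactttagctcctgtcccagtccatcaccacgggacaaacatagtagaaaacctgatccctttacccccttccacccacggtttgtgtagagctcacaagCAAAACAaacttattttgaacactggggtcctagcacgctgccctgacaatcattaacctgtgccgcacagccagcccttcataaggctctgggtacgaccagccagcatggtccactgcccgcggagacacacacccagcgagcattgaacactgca
Igfbp2, chr1:72825137-72825436: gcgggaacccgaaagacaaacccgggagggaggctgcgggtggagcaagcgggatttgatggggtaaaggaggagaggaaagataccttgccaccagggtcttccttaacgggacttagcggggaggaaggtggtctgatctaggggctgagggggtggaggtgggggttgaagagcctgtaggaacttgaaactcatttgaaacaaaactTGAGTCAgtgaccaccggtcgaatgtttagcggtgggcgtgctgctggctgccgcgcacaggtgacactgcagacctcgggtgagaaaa
Igf1, chr10:87860861-87861160: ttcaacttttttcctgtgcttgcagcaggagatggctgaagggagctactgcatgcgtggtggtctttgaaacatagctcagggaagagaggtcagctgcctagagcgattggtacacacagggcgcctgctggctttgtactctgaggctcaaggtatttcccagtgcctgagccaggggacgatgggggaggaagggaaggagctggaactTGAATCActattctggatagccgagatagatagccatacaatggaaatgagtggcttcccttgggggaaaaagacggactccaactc
Igfals, chr17:24877981-24878280: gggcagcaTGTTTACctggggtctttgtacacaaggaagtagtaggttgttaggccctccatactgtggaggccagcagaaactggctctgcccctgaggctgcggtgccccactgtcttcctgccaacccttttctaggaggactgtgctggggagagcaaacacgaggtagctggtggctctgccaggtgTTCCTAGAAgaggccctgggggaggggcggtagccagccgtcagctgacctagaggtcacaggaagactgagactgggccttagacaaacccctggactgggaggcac
All 10 genes had a window in the table, 16 windows in all. Both strands were searched for 8 motifs. The letters were TGANTCA for AP-1, TGACGTCA for the cyclic AMP response element, GTAAACA for FOXO, CAAAACA for the insulin response element, TGATGNAA for ATF4 with C/EBP, TTCNNNGAA for STAT5, TGTTCT for the glucocorticoid receptor and TATAAA for the TATA box. In the Igfbp1 window the only match was CAAAACA at position -108 from the start, a motif held by 6.28% of all 32851 windows of this length. The Igfbp2 window shown had TGAGTCA at -39 and the Igf1 window TGAATCA at -37, both forms of the AP-1 letters, which 7.81% of all windows hold. The Igfals window had the STAT5 letters as TTCCTAGAA at -58 (8.30% of windows) and the FOXO letters on the minus strand at -242 (3.65% of windows). Among the windows not shown, the other start of Igfbp2 had no AP-1 letters and 1 match to the glucocorticoid receptor letters, at -206. Another start of Igfals had TTCTCAGAA at -236 and TGTTCT at -86, and a further start of Igfals had none of the 8 motifs. TATAAA stood at -28 in Igfbp4. These are matches of letters only, and no binding was measured.

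Of the 14 member probes, 12 (8 genes) passed the background filter and 7 of these changed, 1 higher and 6 lower in Fra-1hep liver. Over all 30110 tested probes the share that changed was 11.6%, with 5.52% higher and 6.04% lower. The 7 probes stand for 4 genes, so they are not 7 separate results: by the brightest probe of each gene, 4 of 8 members changed (1 higher, 3 lower) against 16.1% of 13955 genes (7.83% higher, 8.23% lower). Counted in that way, the median log2 ratio was -0.08 over the 8 members and 0 over all genes. Over the 12 probes, where Igf1 and Igfbp2 count more than once, the median was -0.37, against 0.01 over all tested probes. With median centring in place of loess, 3 member probes passed, and the split over all probes moved from 1662 higher and 1818 lower to 2936 higher and 1016 lower.

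**Figure D1:**
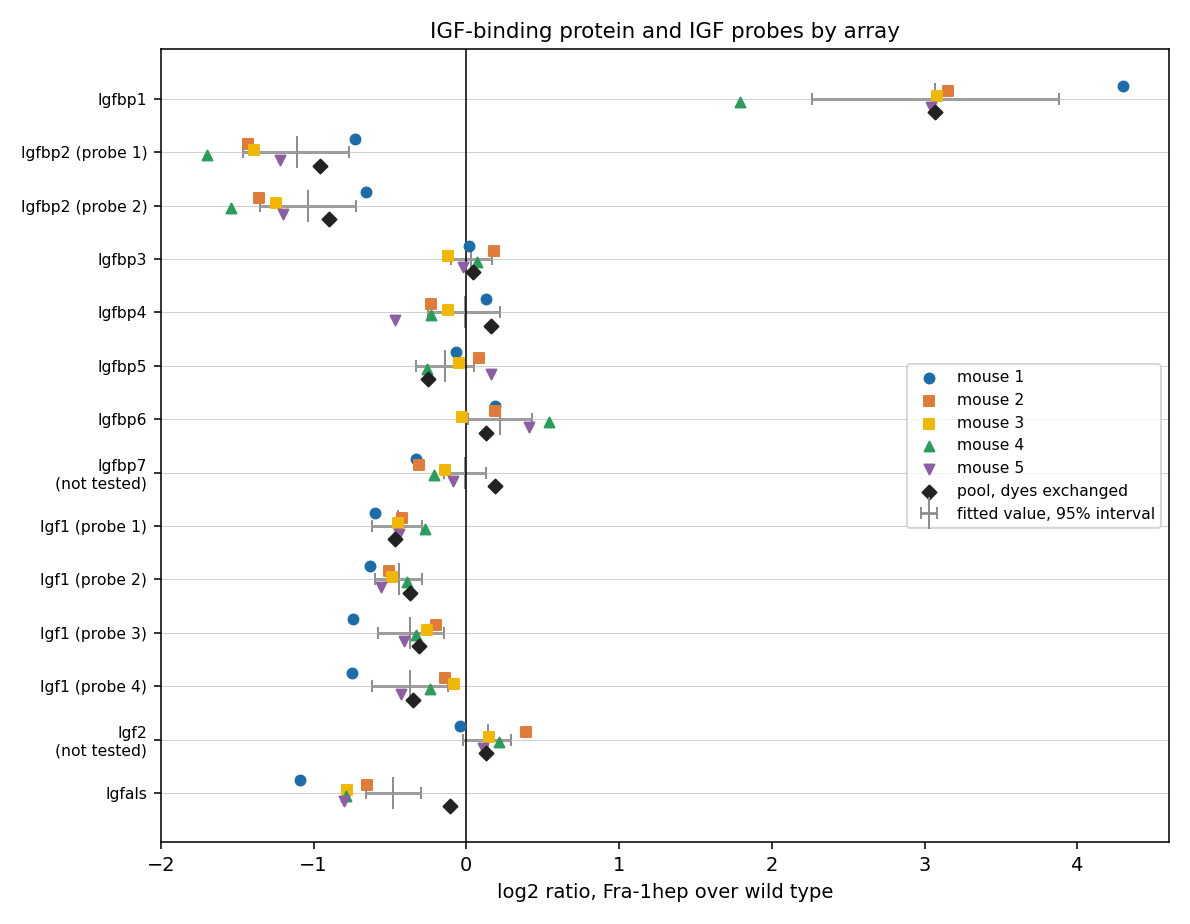
Log2 ratio of Fra-1hep over wild type (x axis) for each of the 14 member probes (y axis). Points are single arrays, grey bars are the fitted value with its 95% interval, and Igf1 probes 1 to 4 are A_55_P2031631, A_55_P2085984, A_55_P2031636 and A_55_P2085974. Igfbp1 sits between 1.79 and 4.30 on every array, both Igfbp2 probes lie below -0.6, and the values of Igfbp3 to Igfbp7 and Igf2 lie between -0.47 and 0.54.

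Igfbp1 rose. It encodes the insulin-repressed binding protein described above, and its ratio on the single arrays was 4.30 in mouse 1, 3.15 in mouse 2, 3.08 in mouse 3, 1.79 in mouse 4, 3.04 in mouse 5 and 3.07 in the pools (probe A_51_P447545, NM_008341). All 6 arrays were high, with mouse 1 far above and mouse 4 far below the other four, which lay close together. On a linear scale mouse 1 was 19.7-fold and mouse 4 was 3.47-fold above the pool. The mean of the mouse samples was 3.06 ± 1.02 (SD, n = 4). The fitted value was 3.07 (SE 0.35, 95% interval 2.26 to 3.88), or 8.38-fold, with an adjusted p of 0.00148 by limma. With a variance that follows intensity and is robust to outlying probes, the same fitted value had an adjusted p of 0.0662.

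The signal of the Igfbp1 probe showed where that spread lay. In the wild-type channel, which holds the same pool on every array, its log2 signal was 10.21 to 10.46. In the Fra-1hep channel it was 14.52 in mouse 1, 13.50 in mouse 2, 13.36 in mouse 3, 12.12 in mouse 4, 13.27 in mouse 5 and 13.53 in the pool. The channels did not overlap, and the lowest Fra-1hep signal was above the highest wild-type signal. Here and for the members below, the wild-type range is that of 1 pool between arrays and holds no spread between animals. The share of all probes whose channels lay apart was not counted. The Igfbp1 SD between mice was larger than that of 99.8% of tested probes. By size of the fitted value the probe ranked 11 among 30110 for increase.

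Igfbp2 fell. It encodes another binding protein made by hepatocytes, with affinity for both IGFs. Its first probe (A_55_P2056729, NM_008342) read -0.73 in mouse 1, -1.43 in mouse 2, -1.39 in mouse 3, -1.70 in mouse 4, -1.22 in mouse 5 and -0.96 in the pools. Its second probe (A_66_P135391) read -0.66, -1.36, -1.25, -1.54 and -1.20 in mice 1 to 5, and -0.90 in the pools. Both probes were low on all 6 arrays, least in mouse 1 and most in mouse 4, and they differed by at most 0.17 on any array. The means were -1.26 ± 0.41 and -1.18 ± 0.37 (SD, n = 4).

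The fitted log2 ratio of Igfbp2 was -1.11 at the first probe (SE 0.15, 95% interval -1.46 to -0.77), 2.16-fold lower, with an adjusted p of 0.00297 by limma. At the second it was -1.04 (SE 0.14, 95% interval -1.35 to -0.72), with an adjusted p of 0.00275. At the first probe the wild-type log2 signals, 13.47 to 13.73, lay above all Fra-1hep signals, 11.98 to 12.76. The decreases ranked 128 and 149 among the tested probes. The mice lay in the same order at both probes, and mouse 4, lowest of the mice for Igfbp1, was lowest for Igfbp2 as well. The mouse with the highest Igfbp1, mouse 1, had the smallest decrease of Igfbp2.

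**Figure D2:**
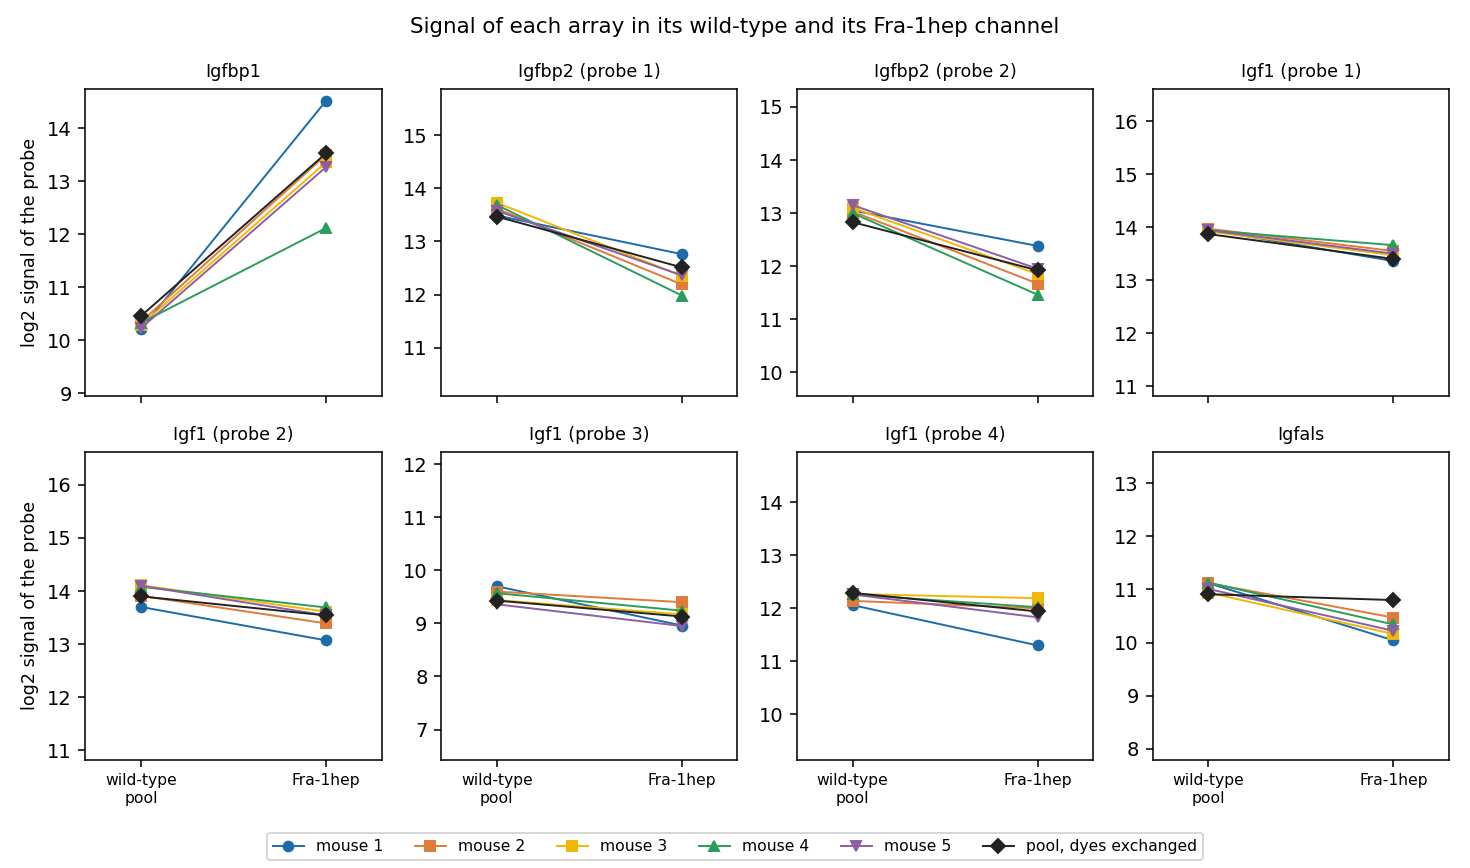
Log2 signal of each probe (y axis) in the wild-type and the Fra-1hep channel (x axis), with 1 line for each array and axes of equal length that start at different values. The Igfbp1 lines climb from 10.21 to 10.46 to between 12.12 and 14.52, the Igfbp2 lines descend on every array, and the Igfals line of the pools is the flattest of its panel.

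The other binding proteins did not pass the test. Igfbp3, the main carrier of circulating IGF and the partner of the acid-labile subunit, read 0.02, 0.18, -0.12, 0.07 and -0.02 in mice 1 to 5, and 0.04 in the pools. Its values lay on both sides of 0, with a fitted value of 0.03 (95% interval -0.10 to 0.17, adjusted p 0.781 by limma). Under the alternative settings the fitted value ran from 0.01 to 0.10. With the deposited series table it was 0.10 with an SE of 0.09, wider than the SE of 0.06 here. Igfbp3 lies next to Igfbp1 on chromosome 11 in the RefSeq gene list, and the fitted values of these neighbours were 0.03 and 3.07. Igfbp2 and Igfbp5 are likewise neighbours, on chromosome 1, with fitted values of -1.11 and -0.14.

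Igfbp4, an inhibitor of IGF action that pappalysin cleaves, read 0.13, -0.23, -0.12, -0.23 and -0.47 in mice 1 to 5, and 0.16 in the pools. The pools and mouse 1 were above 0 and the other mice below, and the fitted value was -0.01 (95% interval -0.25 to 0.22, adjusted p 0.953 by limma). Its sign changed with the setting, from -0.19 in the mouse arrays alone to 0.14 with median centring. Igfbp5, bound to matrix as well as to IGF, read between -0.26 (mouse 4) and 0.16 (mouse 5), with -0.25 in the pools, and had a fitted value of -0.14 (95% interval -0.33 to 0.05, adjusted p 0.328). Igfbp4 and Igfbp5 thus had no shared direction across the mice.

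Igfbp6, which prefers IGF2, read 0.19, 0.19, -0.03, 0.54 and 0.41 in mice 1 to 5, and 0.13 in the pools. It was above 0 on 5 of 6 arrays and highest in mouse 4, the mouse with the smallest Igfbp1 ratio. The fitted value of 0.22 (95% interval 0.01 to 0.43) had an adjusted p of 0.174 by limma, and 0.0272 when only the mouse arrays were used. A fit of the mouse arrays alone has no term for dye, so dye and genotype cannot be told apart in it. There 25.2% of all tested probes passed, against 11.6% in the model with the pools. Igfbp7, a related protein with low affinity for IGF, was well above background in 1 Fra-1hep and 1 wild-type channel and was not tested. Its ratio was -0.33 to -0.09 in the mice and 0.19 in the pools.

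Igf1 fell at 3 of its 4 probes. All 4 carry the accession NM_010512, and each was well above background in both channels of all 6 arrays. The brightest (A_55_P2085984) read -0.63 in mouse 1, -0.51 in mouse 2, -0.49 in mouse 3, -0.39 in mouse 4, -0.56 in mouse 5 and -0.37 in the pools. All 6 arrays were low, within a narrow span, and the mean was -0.52 ± 0.10 (SD, n = 4). The fitted value was -0.44 (SE 0.07, 95% interval -0.60 to -0.29), 1.36-fold lower, with an adjusted p of 0.00456 by limma.

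The other probes of Igf1 gave the same direction on every array. A_55_P2031631 read -0.60, -0.42, -0.45, -0.27 and -0.44 in mice 1 to 5, and -0.47 in the pools, with a fitted value of -0.45 (SE 0.07, adjusted p 0.00605 by limma). Its wild-type log2 signals, 13.87 to 13.97, lay above all Fra-1hep signals, 13.36 to 13.66. A_55_P2031636 read -0.74, -0.20, -0.26, -0.33 and -0.41 in mice 1 to 5, and -0.31 in the pools, with a fitted value of -0.37 (SE 0.09, adjusted p 0.0405). The call at that probe was lost without mouse 4 (adjusted p 0.0536) and without mouse 5 (0.0675). A_55_P2085974 read -0.75 in mouse 1 and -0.43 to -0.08 in the other mice, with -0.35 in the pools. Its fitted value of -0.37 (SE 0.11) had an adjusted p of 0.0711. At A_55_P2031636 the channels overlapped, with wild-type log2 signals of 9.36 to 9.70 and Fra-1hep signals of 8.95 to 9.40. They also overlapped at A_55_P2085974, with 12.06 to 12.29 in wild type and 11.30 to 12.19 in Fra-1hep.

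At each of the 4 Igf1 probes mouse 1 had the lowest ratio of the 6 arrays, and on 1 array the probes lay up to 0.42 apart. The fitted values ran from -0.45 to -0.37. At the 2 clearest Igf1 probes the call was lost with median centring, where both fitted values were -0.29 (adjusted p 0.0556 and 0.0579). With the deposited series table they were -0.41 and -0.42 (0.0502 and 0.0531), and no Igf1 probe passed there. Compared with Igfbp1, whose mouse values spread over more than 2 log2 units, the brightest Igf1 probe varied little, and its SD exceeded that of only 38.4% of tested probes. Igf2, the fetal growth factor that mouse liver shuts down after birth, was well above background in 2 Fra-1hep mouse arrays and in 0 wild-type channels. It was not tested, and its ratio was -0.04 to 0.39 in the mice and 0.13 in the pools. Without the background filter its fitted value was 0.14 (95% interval -0.02 to 0.29, adjusted p 0.372 by limma), and both channels were near background.

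Igfals, the hepatocyte gene of the acid-labile subunit, fell. It read -1.09 in mouse 1, -0.65 in mouse 2, -0.78 in mouse 3, -0.79 in mouse 4, -0.80 in mouse 5 and -0.11 in the pools (A_51_P277088, NM_008340). The mice were 1.57-fold to 2.12-fold below the wild-type pool, and the pools themselves were 1.08-fold apart. The mean of the mouse samples was -0.85 ± 0.16 (SD, n = 4). The fitted value, in which the pools count as much as the mice, was -0.48 (SE 0.08, 95% interval -0.66 to -0.30), 1.39-fold lower, with an adjusted p of 0.00725 by limma.

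The size of the Igfals decrease therefore rests on which arrays are read. The mean of the mice minus the pools was -0.74, a gap larger than that of 98.9% of tested probes (the median gap was 0.14). With the mouse arrays alone the value was -0.85 (adjusted p 0.000173 by limma). With median centring it was -0.34 (adjusted p 0.0535), and with the scanner software's processed signals -0.59 (0.0565). Dye and pool cannot be told apart here, because the 1 array with exchanged dyes is also the 1 array with a Fra-1hep pool. The wild-type log2 signals of Igfals, 10.91 to 11.13, lay above all Fra-1hep signals, 10.04 to 10.80. The nearest of these, 10.91 and 10.80, were the channels of the array of pools, so the separation says nothing further about the size.

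**Figure D3:**
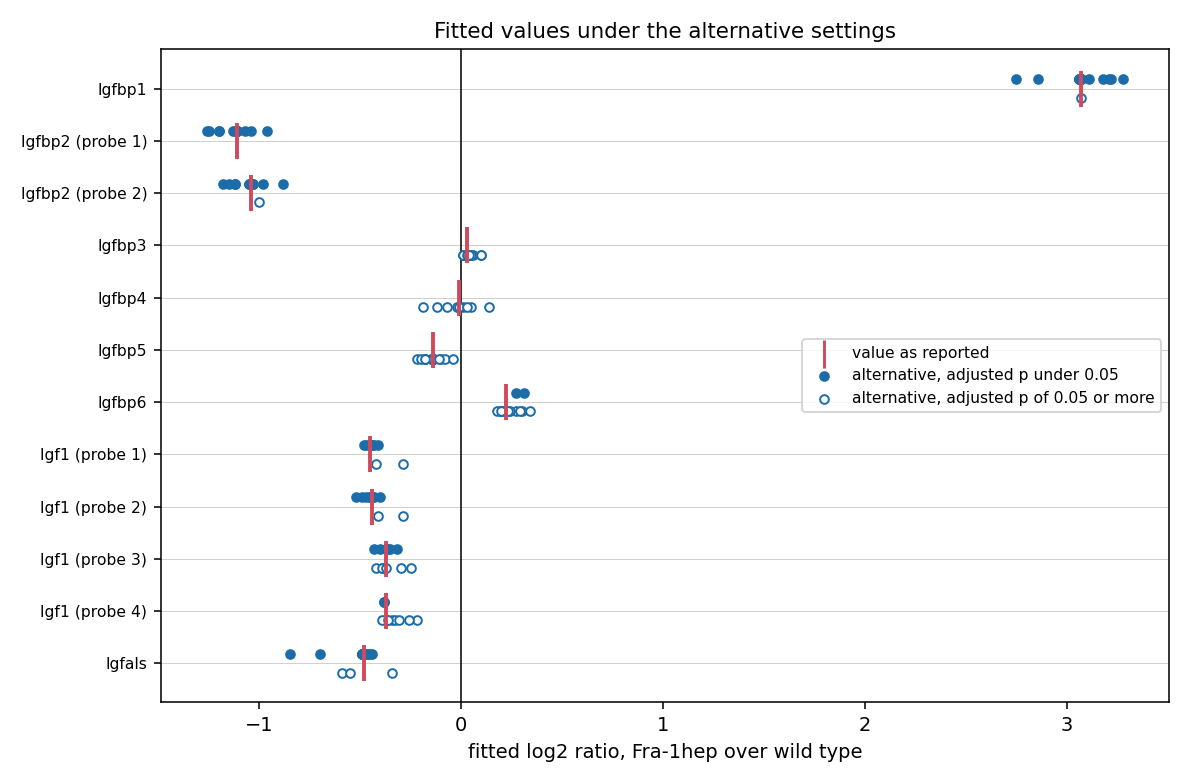
Fitted log2 ratio of Fra-1hep over wild type (x axis) for the 12 tested member probes (y axis) under each alternative setting. Filled points passed the threshold, open points did not, and red bars are the values reported. Igfbp1 stays between 2.75 and 3.28 and the first Igfbp2 probe between -1.26 and -0.96, while Igfals spreads from -0.85 to -0.34.

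The arrays lay on 3 slides, with mice 1 and 2 on the first, mice 3 and 4 and the pools on the second, and mouse 5 on the third. Mean Igfbp1 ratios by slide were 3.73, 2.65 and 3.04, and those of the first Igfbp2 probe -1.08, -1.35 and -1.22. For the brightest Igf1 probe they were -0.57, -0.42 and -0.56, and for Igfals -0.87, -0.56 and -0.80. The direction held within every slide. With slide as a block the fitted values were 2.75 for Igfbp1 (adjusted p 0.00281 by limma), -1.25 for Igfbp2 (0.0036), -0.40 for the brightest Igf1 probe (0.0159) and -0.45 for Igfals (0.0362). Dye and genotype can be separated within the second slide only. Every fitted value with slide as a block, here and below, therefore rests on mice 3 and 4 and the pools, and not on mice 1, 2 and 5. A_55_P2031636 lost its call there (-0.30, adjusted p 0.155), so Igf1 passed at 2 of its 4 probes.

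The receptors showed no change that passed the test. Igf1r, the receptor of both IGFs, had a fitted value of 0.15 (95% interval 0.01 to 0.29, adjusted p 0.176 by limma). Igf2r, which clears IGF2, had 0.04 (95% interval -0.19 to 0.27) and Insr, the insulin receptor, 0.20 (95% interval 0.00 to 0.40), which became 0.32 with median centring (adjusted p 0.0499). Of 16 tested genes of the receptors and insulin signalling, 2 rose, 1 fell and 13 did not pass, near the 16.1% over all genes. That share (7.83% higher, 8.23% lower) is the background for each list below as well. Irs2, the adaptor that couples the hepatic insulin receptor to PI3 kinase, rose by 0.77 (SE 0.09, adjusted p 0.00142) and Gab1, another adaptor, by 0.28 (SE 0.07, adjusted p 0.0285). Pik3r1, the regulatory subunit of PI3 kinase, fell by 0.42 (SE 0.08, adjusted p 0.0161). Irs2 was high on every array, at 0.58 to 1.05.

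A list of FOXO targets and fasting genes was read next, some of which insulin represses through FOXO1, as it does Igfbp1. Of 11 tested genes 5 rose, against 7.83% of all genes, and 6 did not pass. The genes that rose include Irs2, already counted in the list above. The median was 0.20 against 0.00 over all genes. Pck1, the enzyme that commits carbon to gluconeogenesis, read 1.63, 1.25, 1.18, 1.11 and 0.85 in mice 1 to 5, and 1.17 in the pools. Its fitted value was 1.19 (SE 0.12, adjusted p 0.000958 by limma), with all arrays high and mouse 1 highest. G6pc, which releases free glucose, read 2.06 in mouse 1, 0.34 to 1.13 in the other mice and 1.24 in the pools, with a fitted value of 1.16 (SE 0.25, adjusted p 0.0218). Pdk4, which slows glucose oxidation, was 0.63 (SE 0.14, adjusted p 0.0229) and near 0 in mouse 4, at 0.03. Mouse 1 was the highest mouse for Igfbp1, Pck1, G6pc and Pdk4, and mouse 4 the lowest for Igfbp1 and Pdk4. Ppargc1a, Trib1, Klf15 and Angptl4 were among the genes that did not pass. The count of 5 became 2 with the scanner software's processed signals, 3 with slide as a block and 7 with the mouse arrays alone. In that last fit 25.2% of all tested probes passed.

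Other known regulators of Igfbp1 were read the same way. Of 10 glucocorticoid receptor genes 4 rose, 1 fell and 5 did not pass (median 0.32), where 16.1% of all genes changed. Those that rose were Mt2, a metal-binding protein (2.71, SE 0.28, adjusted p 0.000878 by limma), Zbtb16 (0.74), Dusp1, a phosphatase of MAP kinases (0.72), and Fkbp5, a chaperone of steroid receptors (0.31). Lcn2, an acute phase protein, fell by 0.82 (SE 0.07, adjusted p 0.000439). Of 16 genes of the ATF4 stress response 2 rose, 3 fell and 11 did not pass (median 0.03), against the same 16.1%. Asns, asparagine synthetase, rose by 5.42 (SE 0.14, adjusted p 7.06e-07) and Vldlr by 1.86 (SE 0.22, adjusted p 0.00174). Gdf15 fell by 1.13, Nupr1 by 0.63 (without mouse 4, whose spot was marked as an outlier) and Atf3 by 0.51. Of 11 hypoxia genes, 0 passed the test in limma, and 4 had an unadjusted p under 0.05. With the mouse arrays alone, where 25.2% of all tested probes passed and dye has no term, 3 of them rose and 2 fell.

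Growth hormone, acting through its receptor, JAK2 and STAT5B, drives Igf1 and Igfals in liver. Of 9 genes of that axis 1 fell and 8 did not pass (median -0.04), near the 16.1% over all genes. Ghr, the receptor itself, read -0.26, -0.77, -0.72, -0.88 and -0.48 in mice 1 to 5, and -0.23 in the pools. It was low on all arrays, with a fitted value of -0.41 (SE 0.11, adjusted p 0.0472 by limma). A second Ghr probe gave -0.33 (SE 0.07, adjusted p 0.0243), while the call at the first was lost without mouse 4 (0.0581) and without mouse 5 (0.065). Stat5b had 0.15 (95% interval -0.07 to 0.37, adjusted p 0.394), and 0.35 with the mouse arrays alone (adjusted p 0.0209).

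The STAT5-induced feedback inhibitors of that pathway varied widely between mice. Cish read -2.71, -0.34, -0.38, 2.01 and -0.81 in mice 1 to 5, and 0.39 in the pools (adjusted p 0.98 by limma). Socs2 read -1.45 in mouse 1, 1.17 in mouse 2, 1.14 in mouse 3, 0.25 in mouse 4 and 0.34 in mouse 5 (adjusted p 0.83). Both were chosen for naming after their values were seen. Mouse 1, lowest for Cish and Socs2, also had the lowest ratio of Igf1 and of Igfals. It had the smallest Ghr decrease of the mice (-0.26) and the highest Stat5b ratio (0.63). Mouse 4, highest for Cish, had Igfals at -0.79 and the brightest Igf1 probe at -0.39. A link between these genes was not tested.

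Of 9 tested proteases that cut binding proteins 1 rose and 8 did not pass, near the 16.1% over all genes. Their median was 0.21, 5 had an unadjusted p under 0.05, and 3 rose with the scanner software's processed signals. Htra1, a secreted serine protease that itself has an IGFBP-type domain, rose by 0.31 (SE 0.06, adjusted p 0.0179 by limma). Pappa, which cleaves IGFBP4, had 0.21 (adjusted p 0.473), and its relative Pappa2 and the inhibitors Stc1 and Stc2 were not above background often enough to be tested. Of 7 tested genes that share the N-terminal domain of the binding proteins, 4 rose and 3 did not pass (median 0.33). They were the matricellular genes Ccn5 (0.78, SE 0.10, adjusted p 0.00279) and Ccn2 (0.47, adjusted p 0.0192), Htra3 (0.34, adjusted p 0.0172) and Kazald1 (0.33, adjusted p 0.00818). A last list, drawn up around Igf2, had 4 tested genes, Igf2bp2, Afp, Dlk1 and Plagl1. Of these only Igf2bp2, whose protein binds IGF2 mRNA, passed, and it rose by 0.53 (SE 0.07, adjusted p 0.00232 by limma). Igf2bp1 and Igf2bp3 were not tested, and no probe was named H19.

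**Figure D4:**
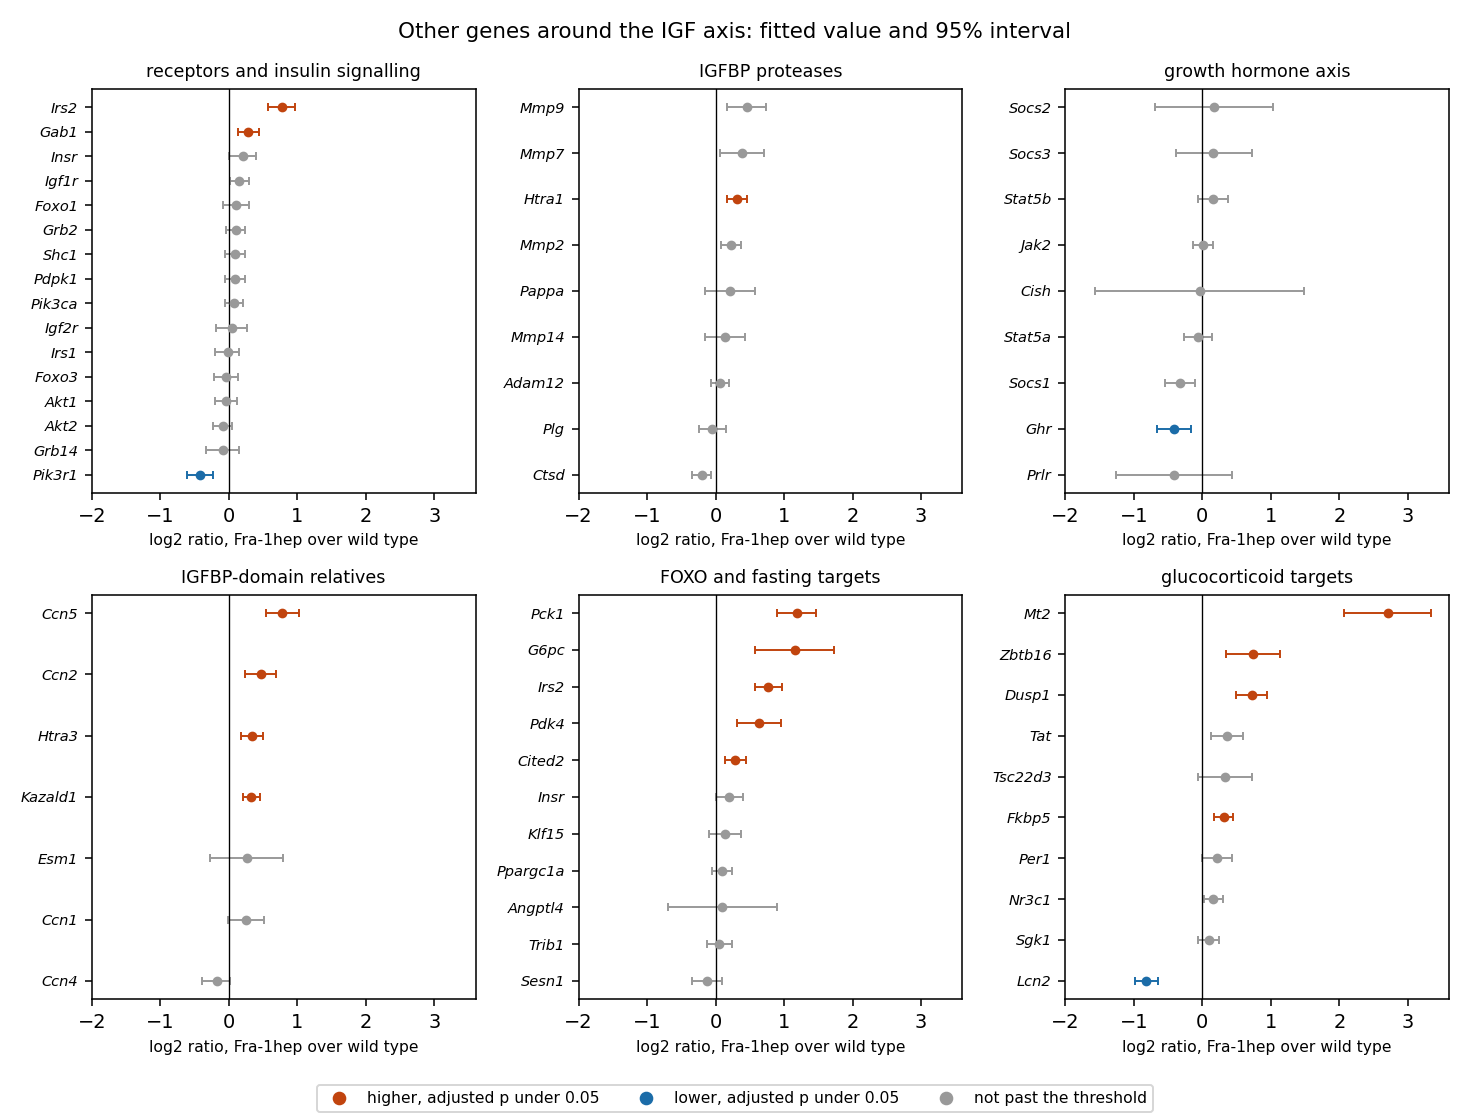
Fitted log2 ratio of Fra-1hep over wild type (x axis) with its 95% interval for the tested genes of 6 lists around the IGF axis. Pck1 at 1.19 and G6pc at 1.16 stand at the top of the FOXO and fasting list and Mt2 at 2.71 at the top of the glucocorticoid list. Igf1r, Igf2r and Insr lie between 0.04 and 0.20.

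Genes next to the members on their chromosomes were read as well. Fahd1, next to Igfals, fell by 0.46 (SE 0.06, adjusted p 0.00295 by limma), and Nubp2 on its other side was at 0.01. Spryd3 next to Igfbp6 was at 0.42 (adjusted p 0.0131) and Mrpl23 next to Igf2 at 0.34 (adjusted p 0.0143). The neighbours Rpl37a, Tns3, Top2a, Tnp1, Soat2, Polr2b and Ins2 lay between -0.18 and 0.19 and did not pass. With the mouse arrays alone, where 25.2% of all tested probes passed, Rpl37a was at 0.31 (adjusted p 0.00578 by limma) and Top2a at -0.32 (0.00636), and both passed. With the scanner software's processed signals, Spryd3 and Mrpl23 lost their calls, and so did Gab1, Pik3r1, G6pc, Pdk4, Zbtb16, Fkbp5, Atf3, Ghr, Ccn2 and Htra3 among the genes above. With slide as a block G6pc lost its call (0.92, adjusted p 0.114 by limma), as did Zbtb16 (0.0799), Htra3 (0.0637), Ccn2 (0.0555) and Gab1 (0.0508). Gab1 also lost it without mouse 4 (0.0577).

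Genes with the profile most like a member were found by the root mean square difference of log2 ratios over the 4 mouse samples and the pools. Nearest to Igfbp1 was Plet1, at 0.466, with ratios of 3.35 in mouse 1, 1.86 in mouse 4 and 2.91 in mouse 5. The next were Gipc2 (0.639), Lysmd2 (0.707), St14 (0.725) and Anxa13 (0.832), whose values in mouse 4 were 2.89 to 3.03. None of those 4 shared the low mouse 4 value of Igfbp1, 1.79. Nearest to the brightest Igf1 probe were Selplg (0.0473), Bcl2a1c (0.0581), Pfn2 (0.0608), Tmem176a (0.0637) and Ripply2 (0.0733). For Igfals they were Tap1 (0.18), C1qb (0.188), Cyp3a11 (0.194), Myo1g (0.205) and Atf3 (0.206), each with the smallest decrease in the pools. The pools were part of the match, so that trait follows from how the genes were picked.

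Markers of cell types moved as well, and in whole liver fewer cells of a type and less RNA per cell cannot be told apart. Their counts stand against 16.1% of all genes that changed (7.83% higher, 8.23% lower). Of 10 hepatocyte markers 1 rose and 2 fell, Alb by 0.65, and their summed signal overlapped between the groups (704725 to 914151 in Fra-1hep, 651375 to 927775 in wild type). Alb read -0.46 to 0.07 in the mice and -1.08 in the pools, so its value rests on the pools. With the mouse arrays alone it was -0.21 (adjusted p 0.12 by limma), and 5 hepatocyte markers rose and 1 fell. In that fit, which has no term for dye, 25.2% of all tested probes passed. Of 12 endothelial markers 1 rose and 8 fell (summed signal 12439 to 18415 against 22643 to 24059), and of 9 macrophage markers 8 fell (40402 to 68017 against 80735 to 93541). With the scanner software's processed signals 1 marker of each of these lists fell by limma, and in the deposited series table all these calls were lost. Without mouse 4, 5 endothelial markers fell. Of 10 neutrophil markers 9 rose (38232 to 88603 against 24940 to 30114), 7 with processed signals and 2 with the intensity trend and robust variance. Stellate cell and fibroblast markers gave 2 higher and 1 lower of 12, and cholangiocyte markers 2 higher of 7. The part of these shifts in the values of Igf1, Igfbp2, Igfals and the other members was not tested. The neutrophil median was lowest in mouse 1 (1.02) and highest in mouse 4 (3.06), whereas Igfbp1 was highest in mouse 1 and lowest in mouse 4.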

How the data were processed

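Liver RNA was hybridised to 6 Agilent 2-colour arrays. Images were read by Agilent Feature Extraction 10.7.3.1 per the file headers (10.7 in the submitters' processing notes). The deposited scanner files hold median spot and background intensity with no normalization, a processed intensity and a log10 ratio of processed signals. The series table deposited by the authors gives log2 ratios of processed signal, not centred, with the array of pools already turned to Fra-1hep over wild type, as its match to each array showed (median absolute difference at most 4.33e-07).

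From the median intensities, background was corrected by normexp (offset 50), which pulls dim ratios towards 0. Ratios were normalised by loess within each array in limma 3.58.1 (R 4.3.3; data.table, release 1.17.8), with control and outlier spots at weight 0. Replicate spots were averaged, and probes were named through accessions in the GRCm38.p6 RefSeq list. A probe was tested if its Fra-1hep signal was well above background on 3 or more of 5 mouse arrays, or its wild-type signal on 3 or more of 6 arrays. lmFit and eBayes (3 residual and 5.15 prior degrees of freedom) tested genotype, 2-sided, with a constant for dye. Channel signals were taken after loess and Aquantile. The error of the array of pools is not estimated.

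All member probes are named. Of each list, read at each gene's brightest tested probe, up to 4 changed genes a direction were named, besides Igf1r, Igf2r, Insr, Ghr and Stat5b, the 5 nearest profiles and the chromosomal neighbours, of which 1 is not reported here. The members, lists and alternatives were chosen with earlier results of these data known. The scripts were tested on simulated data, in which 10% of the calls at an adjusted p under 0.05 in limma were false. That share is above what the threshold aims at. Of log2 changes of 0.5 put in, 95.5% were recovered, and of those of 1 and of 2, 100%. The changes were put into 67, 67 and 66 of 30110 probes. The noise was normal, with the same variance for the pools as for a mouse and no slide effect. These rates therefore hold for that setting and are not the power of the real arrays.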

Additional observations from a re-analysis of the deposited data

How the results depend on the processing

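Of 200 comparisons of a member probe with an alternative, 176 kept direction and side of the threshold, 16 lost the call, 4 gained it and 4 turned sign. The first Igfbp2 probe kept its call in all 17 alternatives. Igfbp1 ran from 2.75 to 3.28 and lost its call once, Igfals ran from -0.85 to -0.34 and lost it in 3, also with the deposited series table (-0.55, adjusted p 0.0586). The third Igf1 probe, A_55_P2031636, lost it in 7. The count of member probes called, 7, was 3 with median centring, 2 with the deposited series table and 4 (of 8) with the brightest probe of each gene, where fewer probes are tested. It ranged from 6 to 7 without each replicate in turn. Leaving out mouse 2 kept mouse 3 and the reverse, so the sample they were counted as was never left out. The array of pools stayed in each of those fits as well. Over all probes, 3480 changed, against 1625 with processed signals, 1555 with the series table, 5898 with no dye term and 7585 with mouse arrays only, and 2913 to 3304 without each replicate. Over the lists, 58 of 151 genes changed (33 higher, 25 lower), against 29 with processed signals (22 higher, 7 lower) and 26 with the series table (23 higher, 3 lower), and 57 to 59 without each replicate. The share of higher calls over all probes was 47.8%, and became 59.9% with the series table and 74.3% with median centring. Igfbp4 turned to 0.01 with processed signals, 0.14 with median centring, 0.05 with the series table and, without each replicate, to values from -0.07 to 0.03. Igf2r turned to -0.03 with slide as a block and ran from -0.02 to 0.07 without each replicate, and Ins2 to -0.01 with slide as a block. Nubp2 turned to 0 with processed signals, ran from 0 to 0.02 without each replicate, and turned to -0.08 with no dye term and -0.14 with mouse arrays only. Tnp1 turned to -0.04 with no dye term and -0.1 with mouse arrays only. The causes were not tested. Of 1253 comparisons of the other named genes, 1142 kept direction and side, 97 lost the call, 5 gained it and 9 turned sign. Each ratio already sets Fra-1hep against the wild-type pool on 1 array, and the replicate numbers pair no mouse with the array of pools. Signal over background left Igfbp7 and Igf2 without a test.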
